A study of Mus musculus with 97 samples.

Results

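The genes described here are the machinery by which the small intestine takes up dietary fat and exports it as chylomicrons. The 10 members were chosen by gene symbol, and all 10 were found among the 51368 genes of the table: Apoa1, Apoa4, Apob, Apoc3, Mttp, Cd36, Fabp1, Fabp2, Mogat2 and Dgat1. The question was whether their transcript levels in the jejunum differ after naproxen, celecoxib, tryptophan or naproxen with tryptophan, and whether any are read in the heart. Naproxen blocks both cyclooxygenases and celecoxib mainly cyclooxygenase-2, the enzymes that start prostaglandin synthesis, and tryptophan is an essential amino acid.

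Absorptive enterocytes take up fatty acids and monoglycerides released by pancreatic lipase, bind them to cytosolic fatty acid binding proteins and rebuild triglyceride at the endoplasmic reticulum. Mttp loads that triglyceride onto apolipoprotein B, and the particle, dressed with Apoa1, Apoa4 and Apoc3, leaves through the lymph. These genes are best known from the proximal small intestine, while the ileum is specialised for bile acid recovery through Slc10a2 and the bile acid binding protein Fabp6.

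The series holds 97 libraries of bulk tissue from C57BL/6 mice that were 11 weeks old, each taken as 1 animal because the labels number animals within treatment and experiment. The jejunum groups, all female, were control (8), celecoxib at 550 ppm in chow (8), naproxen at 1323 ppm in chow (7), tryptophan (8) and naproxen with tryptophan (7). Diets ran for 3 weeks, tryptophan was injected into the peritoneum daily at 50 mg/kg in the last week, and the other jejunum groups received PBS injections, so every jejunum came from an injected mouse. The 59 hearts came from experiment 1 (naproxen and control, 5 of each in females and in males, males at 1610 ppm, no injections), experiment 2 (females: 8 control, 7 naproxen at 1323 ppm, 8 naproxen with tryptophan) and experiment 3 (females: 8 control, 8 tryptophan). The mice of experiments 2 and 3 that were not given tryptophan received PBS.

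Estimated counts per library summed to between 10107247 and 28537536 in the jejuna, with a median of 19084365, and to between 26295720 and 76357609 in the hearts. Levels are CPM, the usual depth-normalised count, here with TMM-scaled library sizes. Summed enterocyte markers stood between 8988 and 33320 CPM in the jejuna, exocrine pancreas markers at no more than 2.15 CPM and summed cardiomyocyte markers at 13.64 to 76.34 CPM. Markers of position along the intestine were less even. The labels do not give the stretch taken, and whether stretch or treatment set these levels was not tested. In 10 of the 38 jejuna Fabp6 was read at 1159 to 5838 CPM, against 0.0612 to 125 CPM in the other 28. The 10 libraries were control replicate 1, celecoxib replicate 3, naproxen replicates 1, 6 and 7, tryptophan replicates 1, 2 and 8, and naproxen with tryptophan replicates 1 and 2. Slc10a2, the ileal bile acid transporter, had a median of 223 CPM in those 10 and 4.87 CPM in the other 28, and the proximal transcription factor gene Gata4 had medians of 23.04 and 58.7 CPM. By dissection batch, they made up 3 of 10 libraries in batch 1, 7 of 10 in batch 2, 0 of 10 in batch 3 and 0 of 8 in batch 4. Results are given with all 38 jejuna and, where they move, with the 28. In naproxen with tryptophan replicate 7 the hepatocyte gene Alb stood at 99.97 CPM, against at most 0.881 CPM in the other 37 jejuna. Liver makes several of the members too, among them Apoa1, Apob, Apoc3 and Fabp1. Without that library the differences of naproxen with tryptophan from control, on the log2 scale, were -0.36 for Apoa1 (with it -0.17), -0.15 for Apob (-0.04), -0.87 for Apoc3 (-0.62) and -0.35 for Fabp1 (-0.24). Without it those of Apoa4 and Cd36 were -0.50 (with it -0.19) and -0.80 (-0.58), and no member was called. Mttp went from 0.02 to -0.20 and Dgat1 from -0.19 to -0.34 without it, while Fabp2 moved the other way, from -0.39 to -0.29. Beside its Alb of 99.97 CPM, that library had Apoa1 at 5585 CPM, Apob at 8365 CPM, Apoc3 at 428 CPM and Fabp1 at 1190 CPM. Its Fabp6 was 0.0884 CPM and its Gata4 89.6 CPM. The part of liver RNA in these shifts was not tested.

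The members lie on 7 chromosomes of GRCm38. Apoa1 (chromosome 9, 46228580 to 46230466, plus strand), Apoc3 (46232933 to 46235636, minus strand) and Apoa4 (46240696 to 46243459, plus strand) sit together within 14880 bases. Fabp2 (122895072 to 122899506, plus strand) and Mttp (138089854 to 138144968, minus strand) are both on chromosome 3. Apob is on chromosome 12 (7977648 to 8016835, plus strand), Cd36 on chromosome 5 (17781690 to 17888801, minus strand), Fabp1 on chromosome 6 (71199827 to 71205023, plus strand), Mogat2 on chromosome 7 (99219084 to 99238619, minus strand) and Dgat1 on chromosome 15 (76502015 to 76511953, minus strand). All are annotated as protein coding. On the opposite strand, Mttp overlaps the protein-coding gene Trmt10a, and Apoa4, Fabp2 and Mogat2 overlap antisense or unclassified transcripts. The sources used here do not give whether counting used strand, so reads of such partners cannot be told apart from those of the member.

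Promoter sequences (250 bases before to 50 after the RefSeq start, GRCm38.p6) were at hand for 7 of the 10 members. They are shown because 9 members varied together across the jejuna and Fabp2 did not. Apoa4 and Fabp1 were the most alike pair, Apob belongs to the same set, and Fabp2 is the gene apart. Only bases ahead of the start in both annotations are printed, except for Fabp1, where 30 bases around a match are given, and capitals mark the TATA box letters TATAAA.
Apoa4, chr9:46240594-46240695, plus strand: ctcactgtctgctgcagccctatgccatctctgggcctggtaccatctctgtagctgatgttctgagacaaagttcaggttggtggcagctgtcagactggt
Fabp1, chr6:71199837-71199866, plus strand: gaagaatcccctTATAAAataggcaacagt
Apob, chr12:7977427-7977647, plus strand: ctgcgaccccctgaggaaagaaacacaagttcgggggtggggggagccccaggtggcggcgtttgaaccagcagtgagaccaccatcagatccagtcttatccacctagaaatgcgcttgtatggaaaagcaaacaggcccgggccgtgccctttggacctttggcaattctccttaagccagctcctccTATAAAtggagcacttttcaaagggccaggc
Fabp2, chr3:122894822-122895071, plus strand: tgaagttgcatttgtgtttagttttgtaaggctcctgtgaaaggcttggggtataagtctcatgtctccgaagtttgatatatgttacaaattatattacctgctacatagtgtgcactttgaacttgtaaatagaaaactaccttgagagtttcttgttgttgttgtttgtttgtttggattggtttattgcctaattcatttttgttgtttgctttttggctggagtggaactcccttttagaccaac
Searched on both strands, TATAAA was found in 2 of the 7 member windows, those of Apob and Fabp1, and in 13.6% of the 32851 windows of the table. The Fabp1 match began 30 bases before the RefSeq start but 22 bases after the GENCODE start of the same gene, since the annotations place the start differently. The Apob match began 60 bases before the RefSeq start and 31 bases before the GENCODE start. The letters CAAAGTCCA, bound by HNF4, were in 0 of the 7 windows and in 0.475% of all windows, and the direct repeat 1 element of nuclear receptors, AGGTCA repeated after 1 base of any kind, was in 0 of the 7 and in 0.0396% of all. No match in these windows says only that those exact letters are not there.

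In the control jejuna Fabp2, the intestinal fatty acid binding protein, was the most abundant member per length, at 11060 ± 2440 CPM per kilobase of its longest coding transcript (SD, n = 8). Apoa1 (3593 ± 1170) and Apoa4 (3333 ± 1310) came next and did not differ beyond their spread, followed by Fabp1, the liver-type binding protein, at 1728 ± 758 CPM per kilobase. Mttp (464 ± 149), Apob (457 ± 121), Apoc3 (408 ± 147) and Dgat1 (321 ± 78.0) formed a lower tier in which neighbours overlapped. Mogat2, the monoacylglycerol acyltransferase that starts triglyceride resynthesis, stood at 187 ± 48.2, and Cd36, the scavenger receptor for long-chain fatty acids, was lowest at 40.8 ± 12.9 CPM per kilobase. The 10 members thus covered a wide range of levels within the same 8 controls.

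No member passed an adjusted p of 0.05 in any of the 7 jejunum comparisons (edgeR's quasi-likelihood test with dissection batch as a block, Benjamini-Hochberg adjustment over 17185 genes). The background was as low: the share of all tested genes called was 0.0116% for naproxen against control and 0% in the other 6 comparisons. At an unadjusted p under 0.05, 1 of the 10 members stood in the naproxen comparison and 1 with naproxen and tryptophan against control, both Cd36, and none in the other 5. Of all tested genes 16% were under that p with naproxen and 5.98% with both treatments, so 1 of 10 members is near the background. DESeq2 and limma voom called 0 of the 10 in all 7 as well. Over all genes DESeq2 called 0.547% with naproxen, 1.69% for naproxen against celecoxib, 0.0582% with both treatments against control and again against naproxen, 0.0116% for the interaction and 0% in the other 2, and voom at most 0.00582%. For naproxen against celecoxib the edgeR count depended on the libraries used. Among the 28 jejuna 842 of 17316 genes were called, or 1 without the batch block. Leaving out 1 library called up to 498 genes, and 0 members were called in any of these fits. All 10 members had a lower fitted level with naproxen than with control, with a median log2 difference of -0.31 against 0.02 over all genes tested, of which 46.7% were lower. The enterocyte markers given below were all lower with naproxen too, with a list median of -0.31 as well, so this direction was not particular to the members. With naproxen and tryptophan 9 were lower (median -0.19), with celecoxib 8 (median -0.14) and with tryptophan 6 (median -0.06). Among the 28 jejuna 8 of 10 were lower with naproxen, 5 with both treatments, 9 with celecoxib and 2 with tryptophan, so the shared direction with naproxen did not hold for Apoa4 and Fabp1. The 4 comparisons share the same 8 control jejuna, so their common direction is not independent. Members other than Fabp2 also varied together from library to library, so these counts of members are not separate observations. In bulk tissue fewer enterocytes and less RNA per enterocyte cannot be told apart.

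**Figure D1:**
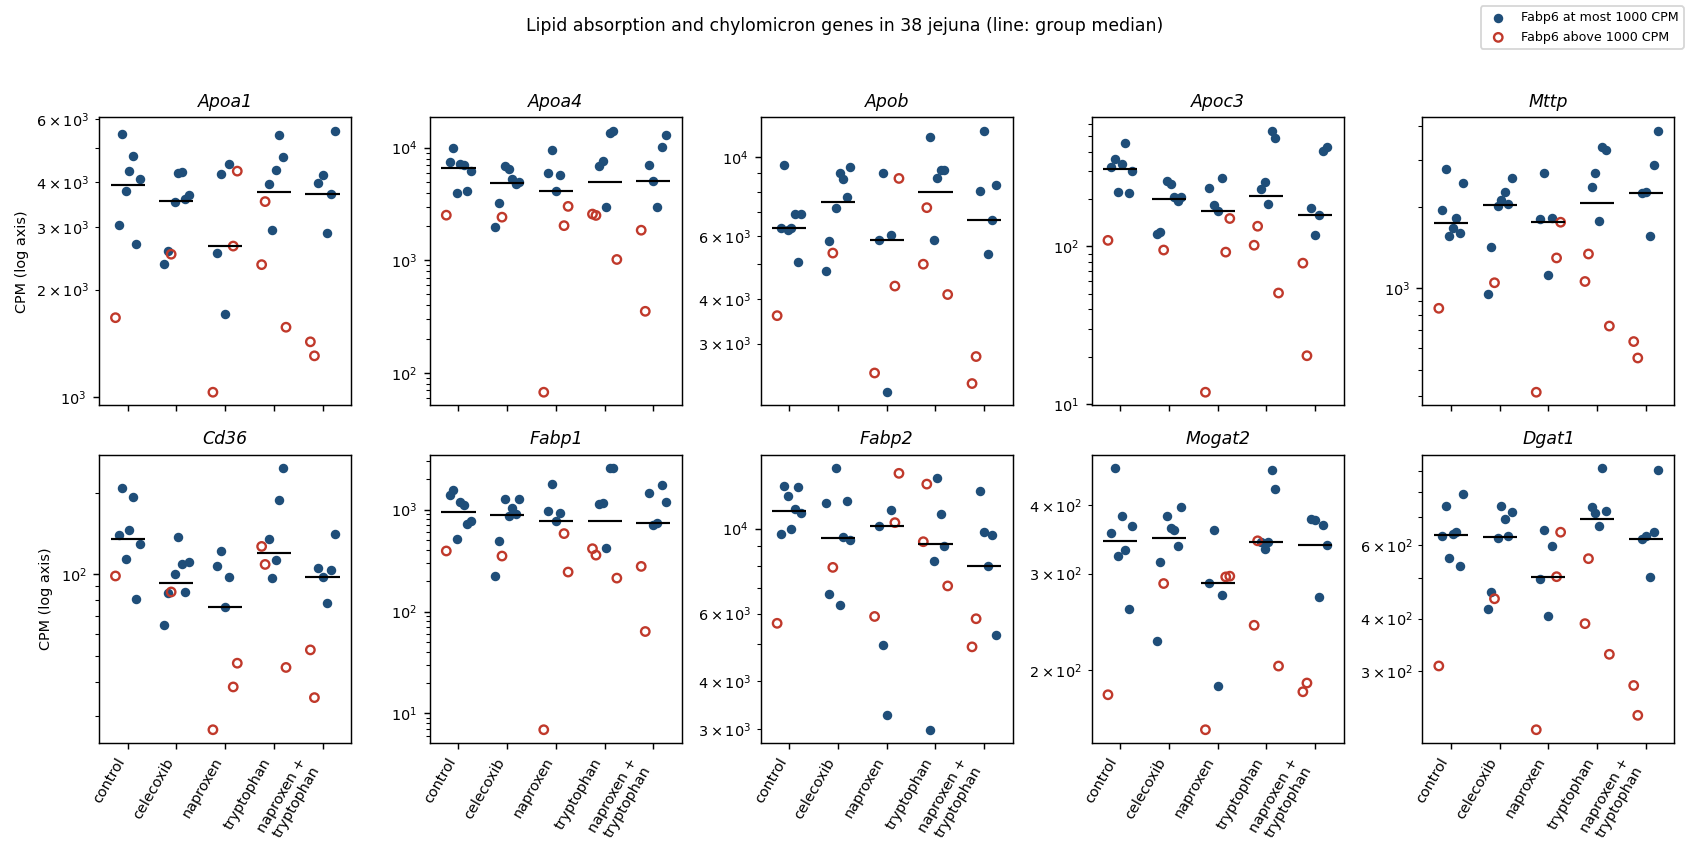
CPM of each member (log axis) in the 38 jejuna by treatment group, 1 point per library and a line at the group median; open red circles are the 10 libraries with Fabp6 above 1000 CPM. The groups overlap for all 10 genes, and the lowest Apoa4 (67.5 CPM), Apoc3 (11.9 CPM) and Fabp1 (6.92 CPM) values are open circles in the naproxen group.

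Among the apolipoproteins, Apob is the structural protein of the chylomicron and cannot be exchanged between particles. Apob was read at 3593, 6333 and 9529 CPM (lowest, median and highest) in controls and at 2192, 5866 and 9001 CPM with naproxen. Celecoxib jejuna ran from 4793 to 9354 CPM, tryptophan jejuna from 4119 to 11405 CPM and those with both from 2318 to 11875 CPM. The groups overlapped throughout, and the log2 differences from control were -0.17 (SE 0.26) for naproxen, 0.18 (SE 0.25) for celecoxib, 0.24 (SE 0.25) for tryptophan and -0.04 (SE 0.26) for both. The Apob difference among the 28 was -0.32 for naproxen (adjusted p = 0.456) and turned to 0.23 for both treatments (adjusted p = 0.973).

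Apoa4 is made in bulk by the proximal intestine during fat absorption. It was read at 2518, 6614 and 9886 CPM (lowest, median and highest) in controls, 1969, 4871 and 6816 CPM with celecoxib, and 67.5, 4087 and 9552 CPM with naproxen. Tryptophan jejuna spanned 1018 to 14205 CPM with a median of 4937 CPM, and jejuna with both treatments 353 to 12866 CPM with a median of 5100 CPM. The treated groups thus held both the lowest and the highest Apoa4 values of the 38 jejuna. The log2 difference with naproxen was -0.48 (95% interval -1.61 to 0.66), an interval that holds large differences in either direction. It moved to 0.00 among the 28 jejuna, where the median was 5835 CPM with naproxen (n = 4) and 7036 CPM in controls (n = 7). Over the 12 settings other than leaving out 1 library, the Apoa4 difference with naproxen ran from -1.22 to 0.00, none called. For tryptophan the Apoa4 difference went from -0.13 to 0.39 and for both treatments from -0.19 to 0.18, none called.

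Apoc3, which slows the clearance of triglyceride-rich particles, had the largest differences of the apolipoproteins. It was read at 109, 309 and 452 CPM (lowest, median and highest) in controls, 94.9, 200 and 259 CPM with celecoxib and 11.9, 168 and 273 CPM with naproxen. Its log2 difference was -0.68 with celecoxib (SE 0.42, adjusted p = 0.957), -0.78 with naproxen (SE 0.44, adjusted p = 0.368) and -0.62 with both treatments (SE 0.45, adjusted p = 0.878). Leaving out 1 library moved the naproxen value from -1.28 (without naproxen replicate 2) to -0.53 (without control replicate 2), with no call. All 8 celecoxib and all 7 naproxen jejuna lay below the control median of 309 CPM, but the ranges overlapped with that of the controls. Among the 28 jejuna the Apoc3 difference was -0.68 with celecoxib (unadjusted p = 0.0161, adjusted p = 0.974) and -0.45 with naproxen (adjusted p = 0.37). Of 17316 genes tested there, 879 were under an unadjusted p of 0.05 with celecoxib.

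Apoa1, the main protein of high-density lipoprotein and a surface protein of new chylomicrons, ran from 1669 to 5448 CPM in controls and from 1032 to 4487 CPM with naproxen. Its log2 differences from control were -0.12 with celecoxib, -0.27 with naproxen, -0.02 with tryptophan and -0.17 with both, with standard errors of 0.235 to 0.246. Mttp, the transfer protein that lipidates Apob, ran from 844 to 2782 CPM in controls and from 412 to 2674 CPM with naproxen. Mttp differences were -0.22 (SE 0.31) with naproxen and between -0.05 and 0.11 in the other 3 comparisons with control. The Mttp difference among the 28 was -0.06 with naproxen (adjusted p = 0.908), 0.40 with tryptophan (adjusted p = 0.766) and 0.34 with both (adjusted p = 0.963). With the ileum markers as a covariate it was 0.03 with naproxen and 0.25 with celecoxib. The Apoa1 difference with both treatments was 0.01 among the 28. For both genes every treated group overlapped the controls.

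Cd36 was the member nearest to a call. It was read in the 8 controls at 80.7 to 207 CPM (median 135 CPM) and in the 7 naproxen jejuna at 26.6, 38.3, 46.8, 75.4, 97.6, 107 and 121 CPM. Of the naproxen jejuna, 4 lay below the lowest control and 3 within the control range, so the groups overlapped. The log2 difference was -0.90 (SE 0.27, 95% interval -1.45 to -0.35), with an unadjusted p of 0.00227 and an adjusted p of 0.176 in edgeR, and it ranked 218 of 17185 genes by p. With naproxen and tryptophan Cd36 ran from 34.95 to 140 CPM (median 97.6 CPM) and the difference was -0.58 (SE 0.27, unadjusted p = 0.0418, adjusted p = 0.816). With celecoxib it ran from 65.0 to 137 CPM (median 93.0 CPM) and the difference was -0.49 (SE 0.26, adjusted p = 0.957), while with tryptophan it was -0.10 (SE 0.26, adjusted p = 0.999).

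The 3 lowest Cd36 values with naproxen were those of replicates 1, 6 and 7, the jejuna with high Fabp6. Among the 28 jejuna, naproxen Cd36 ran from 75.4 to 121 CPM (n = 4) and control Cd36 from 80.7 to 207 CPM (n = 7). The difference there was -0.57 (unadjusted p = 0.0299, adjusted p = 0.155) against -0.90 with all 38, and with naproxen and tryptophan it was -0.38 (adjusted p = 0.955). In the fit of the 28, 4424 of 17316 genes were under an unadjusted p of 0.05 with naproxen. With the mean of 5 ileum markers as a covariate the Cd36 difference with naproxen was -0.78 (adjusted p = 0.146). The direction of the Cd36 difference with naproxen was the same in all 38 refits that left out 1 library each, from -1.13 to -0.77, and none reached a call. With no filter on low counts (32343 genes tested) the same -0.90 had an adjusted p of 4.57e-09 in edgeR, and Apoc3 and Cd36 were called with naproxen, with celecoxib and with both treatments. In that fit calls rose over the whole table, to 3.65% of all genes with naproxen, 0.986% with celecoxib and 1.47% with both, and the cause was not tested. It called Cd36 for naproxen against celecoxib too, with 5.52% of all genes, and 0 members with tryptophan (0.782%), for both treatments against naproxen (1.03%) and for the interaction (0.986%).

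Markers of other cells that express Cd36, and of enterocytes, Paneth cells and ileum, were read beside it, and none was called. Of the 8 adipocyte markers, 7 were lower with naproxen (list median log2 difference -2.23, 6 at an unadjusted p under 0.05, none called). Of all tested genes 16% were under that p with naproxen. Summed adipocyte levels were 70.4 to 165 CPM with naproxen against 93.4 to 204 CPM in controls. Adipoq, which defines adipocytes, was at 0 CPM in 3 of the 7 naproxen jejuna and at 0.162 to 11.7 CPM in the controls. Of 6 endothelial markers 5 were higher with naproxen (median 0.23, 0 called and 0 at an unadjusted p under 0.05). All 12 enterocyte markers were lower with naproxen (median -0.31, 0 called and 0 at an unadjusted p under 0.05), as were 6 of 6 Paneth cell markers (median -0.92, 0 called, 5 at an unadjusted p under 0.05). All 5 ileum markers were higher (median 1.49, 0 called). The part of these markers in the Cd36 difference was not tested, apart from the ileum covariate above.

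Fabp1, which carries fatty acids toward the endoplasmic reticulum, had the widest range of the 10 members. It was read at 393, 938 and 1546 CPM (lowest, median and highest) in controls and at 6.92, 778 and 1792 CPM with naproxen. Tryptophan jejuna ran from 213 to 2558 CPM, celecoxib jejuna from 225 to 1280 CPM and jejuna with both from 63.7 to 1728 CPM. The log2 difference with naproxen was -0.39 (95% interval -1.56 to 0.79) with all jejuna and 0.14 among the 28. It ran from -0.92 (without naproxen replicate 2) to 0.05 (without control replicate 2) when 1 library was left out. Over the 12 other settings this Fabp1 difference ran from -1.26 to 0.14, none called. With tryptophan it was -0.13 (SE 0.57) with all jejuna and 0.45 among the 28. Fabp2 ran from 5662 to 12880 CPM in controls and from 3265 to 13936 CPM with naproxen, with log2 differences of -0.15 to -0.39 over the 4 comparisons with control (SE 0.265 to 0.277, adjusted p from 0.55 to 0.999). The Fabp2 difference among the 28 was -0.61 with naproxen (unadjusted p = 0.0977, adjusted p = 0.273) and -0.37 with tryptophan (adjusted p = 0.801).

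The enzymes of triglyceride synthesis had the narrowest ranges of highest to lowest level among the 10 members. Mogat2 ran from 180 to 468 CPM in controls, 226 to 397 CPM with celecoxib and 155 to 360 CPM with naproxen. Its difference was -0.30 with naproxen (SE 0.17, unadjusted p = 0.0981, adjusted p = 0.386), which became -0.40 among the 28 (unadjusted p = 0.0307, adjusted p = 0.157). Of 17316 genes tested there, 4424 were under an unadjusted p of 0.05 with naproxen. Dgat1, which adds the last acyl chain, ran from 308 to 792 CPM in controls and 217 to 652 CPM with naproxen, a difference of -0.26 (SE 0.20, adjusted p = 0.511). For celecoxib and tryptophan the Mogat2 and Dgat1 differences were between -0.04 and 0.05, with 95% intervals that stayed between -0.425 and 0.437.

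**Figure D2:**
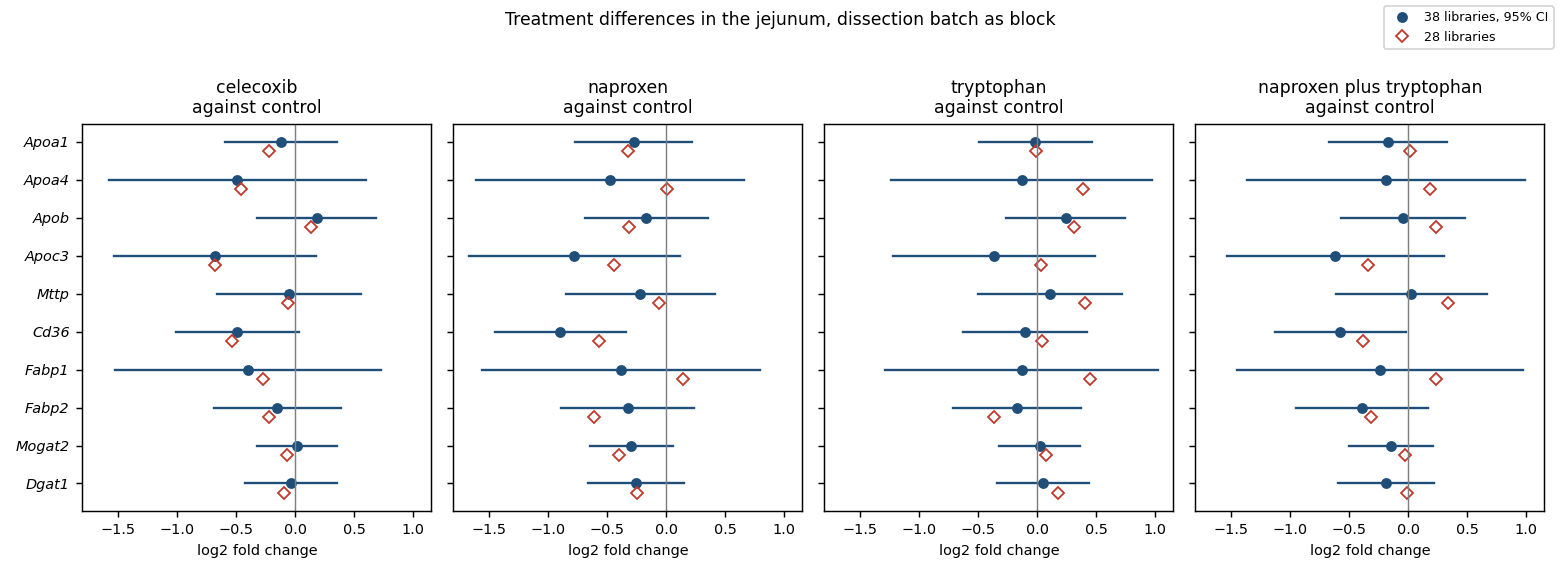
Log2 fold change of each member in 4 comparisons with control (x axis), with 95% confidence intervals from all 38 jejuna (blue) and the value among the 28 with Fabp6 at most 1000 CPM (open red diamonds). The Cd36 interval stays below 0 for naproxen and for naproxen with tryptophan, and the intervals of Apoa4 and Fabp1 are the widest.

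Adding tryptophan to naproxen gave 9 of 10 members a higher fitted level than naproxen alone (median log2 difference 0.15, all genes 0.00), with values from -0.07 for Fabp2 to 0.32 for Cd36 (SE 0.28, adjusted p = 0.996). Of all tested genes 50.4% were lower. Among the 28 jejuna 10 of 10 members were higher. Without naproxen with tryptophan replicate 7, the library with high Alb, the differences of Apoa1 (-0.09), Apoa4 (-0.01), Apoc3 (-0.09) and Dgat1 (-0.09) turned negative. Cd36 fell to 0.10 and Mttp to 0.02 without that library. The interaction of naproxen with tryptophan, which asks whether the naproxen difference depends on tryptophan, was 0.42 for Cd36 (SE 0.38) and 0.52 for Apoc3 (SE 0.63), with adjusted p = 1 in edgeR for each member. Naproxen set directly against celecoxib gave -0.41 for Cd36 (SE 0.27, adjusted p = 0.403), -0.35 for Apob (SE 0.26, adjusted p = 0.459) and -0.31 for Mogat2 (SE 0.17, adjusted p = 0.328), and 8 of 10 members were lower. Apoa4 (0.01) and Fabp1 (0.02) had differences near 0, with intervals of -1.12 to 1.14 and -1.16 to 1.19 that leave room for large differences either way. Among the 28 jejuna the Cd36 difference between the drugs was -0.03 (adjusted p = 0.95).

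Levels also differed widely from library to library. Over the 38 jejuna the highest level was 370 times the lowest for Fabp1, 210 times for Apoa4, 45.9 times for Apoc3, 9.35 times for Mttp, 9.28 times for Cd36, 5.42 times for Apob, 5.41 times for Apoa1, 4.82 times for Fabp2, 4.21 times for Dgat1 and 3.02 times for Mogat2. The 3 lowest Apoa4, Apoc3, Fabp1 and Dgat1 values all stood in jejuna with high Fabp6. The median Apoa4 level was 2225 CPM in those 10 and 6332 CPM in the other 28, Fabp1 314 and 1070 CPM, Apoc3 93.5 and 233 CPM, Mttp 947 and 2094 CPM, and Cd36 49.7 and 110 CPM. For Apoa1 the medians were 2010 and 3967 CPM, for Apob 4234 and 7079 CPM, for Dgat1 359 and 641 CPM, for Mogat2 222 and 350 CPM, and for Fabp2 7504 and 9894 CPM. The ranges of the 10 and the 28 libraries overlapped for every member. Since the 10 were picked by a measured gene of the same libraries, these are descriptions without a test.

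Naproxen replicate 1 had the highest Fabp6 (5838 CPM) and the lowest Apoa4, Fabp1 and Apoc3. Its Fabp2 level, 5899 CPM, was within the control range only through control replicate 1 (5662 CPM), itself a jejunum with high Fabp6. The next lowest control had Fabp2 at 9698 CPM. The Adipoq level of naproxen replicate 1, 2.90 CPM, was within the control range. Naproxen with tryptophan replicate 2 (Fabp6 4707 CPM) was next, at 353 CPM Apoa4 and 63.7 CPM Fabp1. In tryptophan replicate 8 (Fabp6 5523 CPM) Apoa4 was 1018 CPM and Fabp1 213 CPM. Naproxen replicate 6, with Fabp6 at 4162 CPM, still had Apoa4 at 2032 CPM and Fabp1 at 582 CPM, so the order was not strict.

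**Figure D3:**
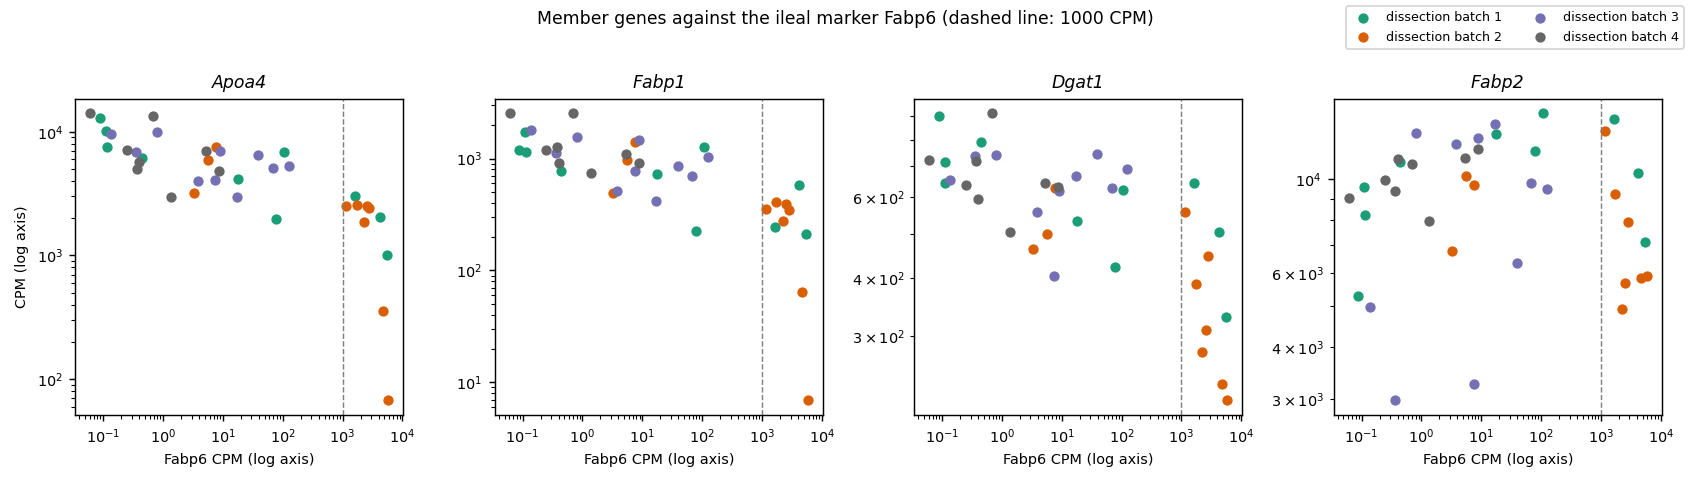
CPM of Apoa4, Fabp1, Dgat1 and Fabp2 against Fabp6 CPM in the 38 jejuna (both axes log), coloured by dissection batch, with a dashed line at 1000 CPM of Fabp6. Points right of the line hold the lowest Apoa4, Fabp1 and Dgat1 levels, down to 67.5, 6.92 and 217 CPM, while the 2 lowest Fabp2 levels, 2988 and 3265 CPM, lie to its left.

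The members other than Fabp2 varied together from library to library. Over the 38 jejuna the Pearson correlation of log2 CPM was 0.636 to 0.972 (median 0.849) for the 36 pairs of the other 9 members, highest for Apoa4 with Fabp1, and 0.181 to 0.451 (median 0.299) for the 9 pairs with Fabp2. Among the 28 the same pairs gave 0.221 to 0.909 (median 0.716) and -0.117 to 0.288 (median 0.05). These are descriptions of likeness; all genes share the library, its depth and its cell makeup. The genes most like the mean of the members over the 38 jejuna, of 15055 compared, were Tmem135 (r 0.976), Hadh (0.973), Galm (0.971), Ms4a10 (0.968) and Cat (0.967). Those most like Apoa4 were Adh6a (0.962), Cyp2b10 (0.953), Enpp3 (0.953), Rbp2 (0.95) and Dhrs1 (0.946). Hadh encodes a mitochondrial enzyme of fatty acid oxidation, Cat is catalase, and Rbp2 is the cellular retinol binding protein of enterocytes.

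Dissection batch, a label of the submitters, was tested after the data had been seen because Fabp6 was uneven over it. With treatment in the model, 4 of 10 members differed between the 4 batches at an adjusted p of 0.05, where 19.8% of all tested genes did (edgeR F test, 17185 genes). They were Apoa1 (adjusted p = 0.0117), Dgat1 (0.0128), Mttp (0.031) and Apob (0.0318). Apoa1 had a median of 3232 CPM in batch 1, 2432 CPM in batch 2, 4203 CPM in batch 3 and 4389 CPM in batch 4. Dgat1 had medians of 633, 418, 659 and 641 CPM, and Mttp 1887, 1056, 2271 and 1947 CPM, so batch 2 was lowest for each. The other 6 members had adjusted p-values of 0.0613 (Mogat2) to 0.503 (Fabp2). Among the 28 jejuna 0 of 10 members and 0% of 17316 genes were called, and none of the members was at an unadjusted p under 0.05, where 10.4% of all tested genes were. That refit dropped 7 of the 10 libraries of batch 2 and 3 of the 10 of batch 1. With so little of batch 2 left, it cannot say whether the batch difference is absent.

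**Figure D4:**
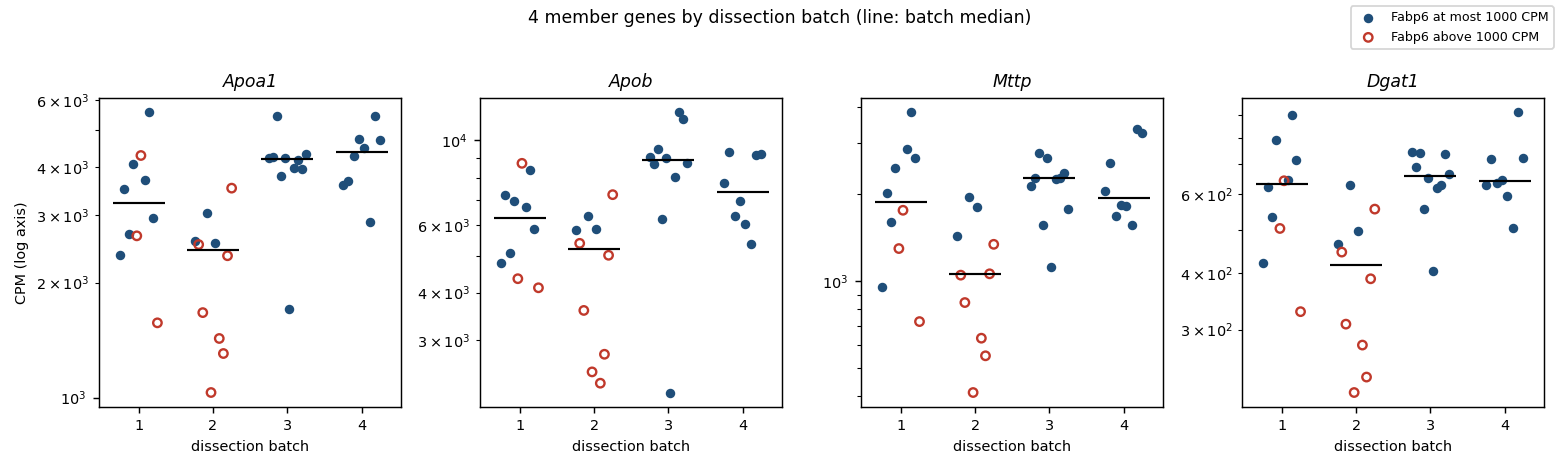
CPM (log axis) of the 4 members called between dissection batches, 1 point per library and a line at the batch median; open red circles are libraries with Fabp6 above 1000 CPM. Batch 2 has the lowest medians and 7 of its 10 libraries are open circles.

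The other genes of the pathway were read from lists of transporters and activating enzymes, triglyceride and lipid droplet genes, chylomicron assembly and secretion, regulators, and PPAR alpha targets. None of their tested genes was called in any jejunum comparison. With naproxen, 14 of 16 tested assembly and secretion genes were lower (median -0.21, 3 at an unadjusted p under 0.05, where 16% of all tested genes were under that p), led by Pla2g12b (-0.52, SE 0.18, adjusted p = 0.21), which takes part in lipoprotein lipidation, and Sar1b (-0.42, SE 0.20, adjusted p = 0.298), the GTPase of the vesicles that carry chylomicrons. Of 13 uptake and activation genes 10 were lower (median -0.21), led by Dbi (-0.39, SE 0.18, adjusted p = 0.283), the acyl-CoA binding protein. Of 13 regulators 9 were lower (median -0.11), and Nr1h3, the liver X receptor alpha gene, had the smallest p (-0.50, SE 0.15, unadjusted p = 0.00191, adjusted p = 0.174). Of 14 PPAR alpha targets 12 were lower with naproxen (median -0.14, 0 at an unadjusted p under 0.05), and of 13 triglyceride and lipid droplet genes 10 (median -0.09).

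With tryptophan 10 of 13 triglyceride and lipid droplet genes (median 0.02) and 11 of 14 PPAR alpha targets (median 0.10) were higher, with 0 at an unadjusted p under 0.05 in either list. With celecoxib, Sar1b was at -0.46 (SE 0.19) and Vamp7, a vesicle fusion protein of chylomicron transport, at -0.32 (SE 0.16), each with adjusted p = 0.957. The PPAR alpha target Cpt1a, which carries fatty acids into mitochondria, was at 0.23 (SE 0.11, adjusted p = 0.957). With naproxen and tryptophan the smallest p-values of the lists were those of Angptl4 (-0.68, SE 0.30, adjusted p = 0.795), an inhibitor of lipoprotein lipase, Pla2g12b (-0.41, SE 0.18, adjusted p = 0.797) and Gpat4 (0.21, SE 0.09, adjusted p = 0.807), an enzyme of glycerolipid synthesis.

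In the hearts 3 members passed the filter on low counts, and each was read in all 59 libraries. Cd36, which brings fatty acids into cardiomyocytes, stood at 865 to 2067 CPM, Dgat1 at 9.02 to 28.1 CPM and Mttp at 4.31 to 17.4 CPM before scaling. The other 7 were near or at 0: Apoa4 was at 0 in 50 of 59 hearts, Fabp2 in 51, Fabp1 in 37, Apob in 33, Apoc3 in 29, Mogat2 in 25 and Apoa1 in 15. Summed over the 7, the highest counts were in 2 hearts of experiment 3. Tryptophan replicate 1 had 153 counts of Apob and 111 of Apoa1 together with 2498 counts of the hepatocyte gene Alb, and control replicate 4 had 82 of Apoa1 and 43 of Fabp2 with 299 of Alb. The part of other tissue in these counts was not tested.

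No member was called in a heart comparison (0 of 3 in each), where 0.089% of 15738 genes were called for naproxen over experiments 1 and 2, 0.255% of 16085 for naproxen with tryptophan and 0% of 15805 for tryptophan. Over 17 naproxen and 18 control hearts, with experiment and sex as blocks, Cd36 differed by log2 0.00 (95% interval -0.135 to 0.135), Dgat1 by -0.02 (SE 0.09) and Mttp by 0.03 (SE 0.08), each with adjusted p = 1. Within the parts of that set Dgat1 differed by 0.10 in experiment 1 females, -0.34 in experiment 1 males (unadjusted p = 0.0712, adjusted p = 0.521) and 0.10 in experiment 2. Dgat1 averaged 12.5 CPM in the males given 1610 ppm naproxen and 15.7 CPM in male controls (n = 5 each, overlapping). Cd36 differed by -0.09, 0.03 and 0.03 and Mttp by 0.14, -0.06 and 0.00 in the same order, none called, and whether the parts differ was not tested. In experiment 2 Cd36 stood at 1243 ± 178 CPM (SD, n = 8) in controls, 1255 ± 127 CPM (n = 7) with naproxen and 1171 ± 126 CPM (n = 8) with naproxen and tryptophan. Mttp there was 7.82 ± 1.06 CPM in controls and 6.74 ± 1.36 CPM with both treatments, a difference of -0.21 (SE 0.11, unadjusted p = 0.0564, adjusted p = 0.304 in edgeR). In experiment 3 Cd36 was 999.7 ± 92.7 CPM in controls and 983 ± 83.1 CPM with tryptophan (n = 8 each), and the 3 differences lay between -0.09 and -0.01. Heart libraries were made by poly-A selection and jejunum libraries by ribosomal RNA depletion, because jejunum RNA had integrity numbers under 8, and no test between the tissues was made.

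**Figure D5:**
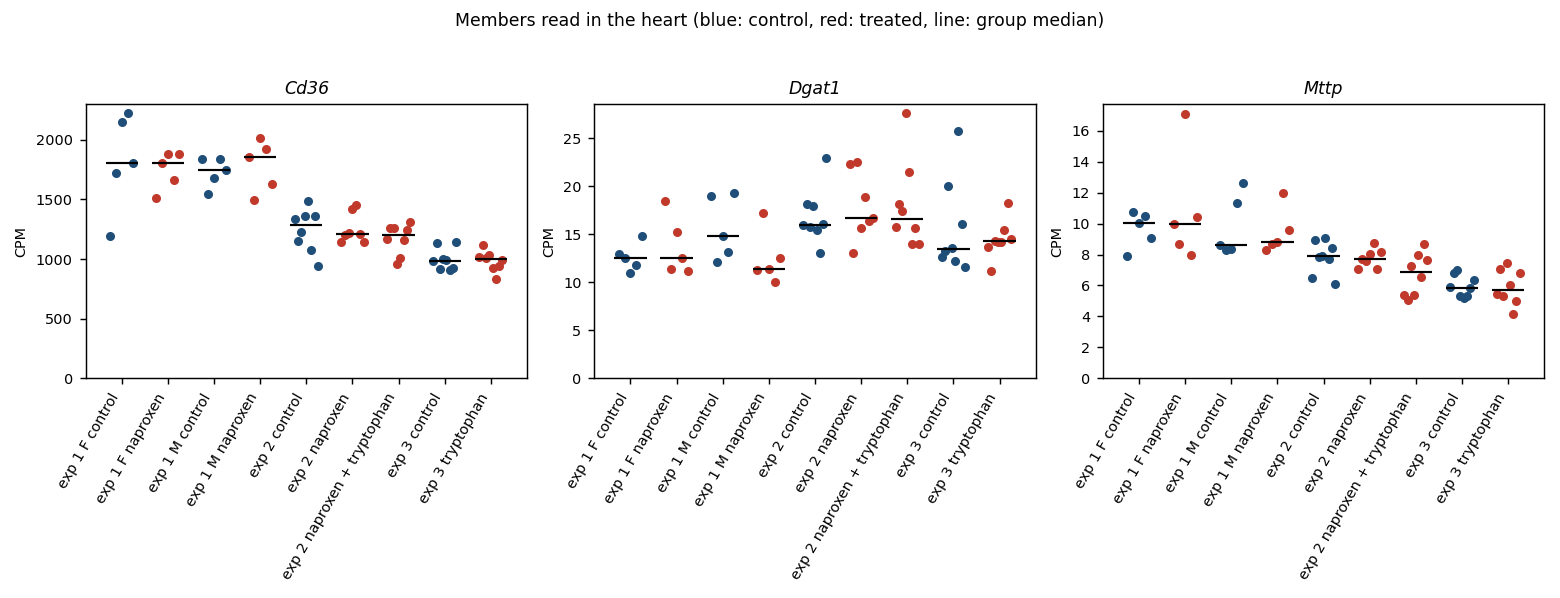
CPM of Cd36, Dgat1 and Mttp in the 59 hearts by experiment, sex (F female, M male) and treatment, 1 point per library and a line at the group median; experiments were scaled within their own fits. Treated (red) and control (blue) groups of the same experiment overlap for all 3 genes.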

How the data were processed

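RNA-seq of 38 jejuna and 59 hearts was used. The authors deposited estimated counts, 1 value per gene and library; Salmon 1.9.0, R 4.2.2 and GRCm38 are named in the submitters' processing notes, and the sources used here do not give how transcripts became gene values. Of the values, 24.7% were not whole and all were rounded. Counts were tested with edgeR 4.0.16 (R 4.3.3): TMM scaling, filterByExpr with a minimum count of 10, the robust quasi-likelihood F test and Benjamini-Hochberg adjustment over all tested genes, called at 0.05. Jejuna and experiment 3 hearts had dissection batch as a block, and pooled hearts had experiment and sex. DESeq2 1.42.0, limma 3.58.1 (voom), other scalings and filters, and leaving out each library were alternatives. Members and gene lists were chosen with earlier results of these data known. The genes named are the members and, of each other list and comparison, those among the 2 with the smallest p where none was called (up to 4 called genes otherwise), plus the 5 most like the members' mean and the 5 most like Apoa4. Fabp6, Slc10a2, Gata4 and Alb were singled out after their values were seen. On simulated data for naproxen against control (17185 genes), 24 of 67 genes changed 1.5-fold, 55 of 67 changed 2-fold and 62 of 66 changed 3-fold were recovered, and 3.42% of 146 calls were false. The simulated counts were independent draws around 1 mean per gene, with no batch or Fabp6 difference between libraries. The real comparison had 2 calls. These shares therefore do not say which changes the real comparison could call. CPM per kilobase used the longest coding transcript of GENCODE vM21. The leaving out of jejuna with Fabp6 above 1000 CPM, the ileum covariate and the batch test were chosen after seeing the data.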

Additional observations from a re-analysis of the deposited data

Results flagged for a closer look

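In 6 of 77 groups of member values, 1 library stood far from the others of its group by Dixon's test, where chance gives about 1 in 20 groups. The groups are not independent, since they share libraries and most members varied together, so 1 odd library can be flagged more than once. In naproxen replicate 1, Apoa4 was 67.5 CPM (next lowest 2032 CPM), Apoc3 11.9 CPM (next 92.1 CPM) and Fabp1 6.92 CPM (next 244 CPM). This library also had the highest Fabp6, 5838 CPM. In control replicate 1, with Fabp6 at 2556 CPM, Fabp2 was 5662 CPM (next 9698 CPM) and Dgat1 308 CPM (next 534 CPM). In tryptophan replicate 3, Fabp2 was 2988 CPM (next 7086 CPM), with Fabp6 at 0.356 CPM.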

How the results depend on the processing

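With no filter on low counts (32343 genes tested), 2 members were called with celecoxib (Apoc3 and Cd36), 2 with naproxen (the same pair), 2 with naproxen and tryptophan (the same pair) and 1 for naproxen against celecoxib (Cd36), against 0 in each with the filter. Calls rose over all genes too, to 319, 1182, 476 and 1784 genes (0.986%, 3.65%, 1.47% and 5.52%) in that order; the cause was not tested. Over all settings other than leaving out 1 library, 84 of 908 member values changed sign and 7 were called, all without the filter. Leaving out 1 library at a time gave 0 calls among 2882 member values, with 153 sign changes. The Apoa4 difference with naproxen ran from -1.02 without naproxen replicate 2 to -0.16 without control replicate 2. Same-numbered samples are different animals by the labels. Of 43 same-numbered jejunum pairs, 22 had deviations correlated above 0.1. Their median correlation was 0.112, against -0.0182 for 294 other pairs. In the heart fits the medians were 0.118 against -0.0469 (experiments 1 and 2 pooled), 0.078 against 0.023 (experiment 2) and 0.189 against -0.0174 (experiment 3). Same-numbered samples were thus somewhat more alike, and whether the numbers stand for a shared handling was not tested. With the replicate block, 0 members were called in each comparison, and the Cd36 difference with naproxen was -0.97 (adjusted p = 0.204 in edgeR). Depth in the jejuna limits what low genes can show.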
